A study of Mus musculus with 24 samples.

Results

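The effect of a diet without leucine (LeuD) was described in livers of mice that lack the kinase GCN2 in the whole body and that were killed at circadian time 15 (CT15), early in the subjective night. KO LeuD CT15 comprised 3 mice on the leucine-free diet, and KO Control CT15 comprised 3 mice kept on the control diet. These 6 libraries of the 24 in the series were chosen by their labels for genotype, diet and time, and every gene listed for them was used. All 6 mice, those on the control diet included, carried the same whole-body loss of GCN2, so the comparison shows what the diet did where this kinase was missing from every tissue. The other groups set beside it were KO LeuD and KO Control at CT03 and wild-type (WT) LeuD and Control at both times, with 3 mice each. The mice were housed one to a cage with food and water always at hand, had 2 days of adjustment to the control diet under a 12-h light-dark cycle, and then changed diet, or not, as a dark phase began. Lights went off for good 24 h later, and the mice were killed under red light when 8 days of darkness had passed. The labels name no strain, sex, age or knockout allele.

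GCN2, encoded by Eif2ak4, binds uncharged transfer RNA when an amino acid runs short and phosphorylates the translation factor eIF2. Phosphorylated eIF2 slows general translation and favours translation of the transcription factor ATF4, which switches on amino acid synthesis, amino acid transport and stress genes such as asparagine synthetase. Other kinases, among them PKR (Eif2ak2), which binds double-stranded RNA, phosphorylate the same site. Interferon-stimulated genes, a separate programme found in nearly all cells of the liver, are switched on when interferon receptors activate transcription factors, among them STAT2 and IRF9, which bind a short DNA element in their promoters.

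The 6 libraries held between 39037273 and 44879767 reads over 14834 genes. Values of single mice below are normalized counts, given in the order of mouse 1, 2 and 3 of a group, and the text says LeuD livers and Control livers for these 6. Eif2ak4 had 321, 295 and 292 in LeuD livers, against 316, 441 and 409 in Control livers, and a total over the gene cannot show whether an exon was lost. Eif3j2, a near-identical copy of Eif3j1, separated the genotypes in these libraries: on one scale for 24 libraries it averaged 758 ± 111 in KO LeuD and 751 ± 127 in KO Control at CT15, against 77.9 ± 20.8 in WT LeuD and 61.5 ± 10.5 in WT Control (SD, n = 3 each). Control mouse 1 stood apart, with 861 of 11912 genes more than 1 log2 unit from both mates, while the other 5 libraries had 53 to 242. Pancreas acinar transcripts took 74.9, 42.1 and 8372 RPM (reads scaled to the library's total) in LeuD livers and 719, 40.6 and 49.8 in Control livers, so LeuD mouse 3 and Control mouse 1 held the most. Hepatocyte markers took 17.0% to 19.3% of reads in LeuD livers and 13.3% to 14.4% in Control livers, with none at 0. In bulk tissue, fewer cells of a type and less RNA per cell cannot be told apart.

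Few single genes passed when limma compared the 6 libraries alone: 3 of 14834 genes had an adjusted p under 0.05 (0.0202%), with 2 higher (0.0135%) and 1 lower (0.00674%). At an unadjusted p under 0.05 it gave 1301 genes higher and 1075 lower, and edgeR's quasi-likelihood test on the recovered reads also called 3. The authors' deposited table, which holds their own adjusted p-values, called 698 genes (4.71%), 451 of them higher (3.04%) and 247 lower (1.67%). A single limma fit of all 24 libraries, called the 24-library fit below, takes the spread between mice from all 8 groups. Mates differed by a chi-square over degrees of freedom of 88.5 to 396 in KO Control CT15, against 33.6 to 153 in the WT groups. The pooled spread can thus be too small for this comparison, and the adjusted p-values of that fit too low. The 24-library fit called 727 of 14238 genes higher (5.11%) and 496 lower (3.48%). "Rose" and "fell" below refer to these calls, and the rule is named each time. Log2 changes with their standard errors (SE) come from the 6-library test unless another source is named. Each p-value sets a change against the spread between the mice of its own test. An SE and a 24-library adjusted p printed together thus rest on different spreads. Without Control mouse 1, 203 genes were called, the 3 among them, and without any other single mouse 0 were. The 24-library fit called 2 of the 3 without Control mouse 1 and 1 of them without LeuD mouse 3.

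Id1, a dominant-negative regulator of helix-loop-helix transcription factors and a known target of BMP signalling, rose. It had normalized counts of 1206, 1461 and 1419 in LeuD livers, against 337, 228 and 336 in Control livers. The 3 LeuD livers all lay far above the 3 Control livers, with a log2 change of 2.20 ± 0.20 (limma adjusted p = 0.0271). Its relatives were also higher in the authors' deposited table: Id3 by 1.10 on the log2 scale of the 6-library fit (deposited adjusted p = 0.0234) and Id2 by 0.63 (deposited adjusted p = 0.0396). Smad7, a feedback inhibitor of TGF-beta and BMP receptors, had 835, 1333 and 1210.3 in LeuD livers, against 629, 467 and 526 in Control livers. All 3 LeuD livers lay above all 3 Control livers, and the authors' deposited table gives an adjusted p of 0.00173. Id2, Id3 and Smad7 were named after their values were seen, and none of them passed the 6-library test. The second called gene with higher values, AI506816, has a clone-style symbol and was named after its values were seen. It had 383, 389 and 463 in LeuD livers, against 100.3, 89.0 and 103 in Control livers, again with no overlap, for a log2 change of 2.06 ± 0.18 (limma adjusted p = 0.0264).

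Ddah1, the enzyme that degrades asymmetric dimethylarginine, an inhibitor of nitric oxide synthases, fell. It had normalized counts of 1114, 799.8 and 978 in LeuD livers, against 3868, 3811 and 3413 in Control livers. Each LeuD liver held less than each Control liver, for a log2 change of -1.95 ± 0.16 (limma adjusted p = 0.0264). LeuD also lowered Ddah1 elsewhere in the authors' deposited tables: the log2 changes from the 6-library fits were -1.01 in WT at CT15 (deposited adjusted p = 1.62e-07) and -1.89 in KO at CT03 (deposited adjusted p = 0.0045). The effect in KO minus that in WT at CT15 was -0.94 ± 0.22 and missed the adjusted threshold (limma adjusted p = 0.117).

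The next genes by p did not pass the 6-library test (limma adjusted p between 0.0591 and 0.0684). All of those described here except Atp6v0d2 rose or fell in the 24-library fit. That fit reuses the 6 libraries in which these genes were picked by p, so its calls are no separate support. Slc16a12, a transporter of creatine, had 6243, 5177 and 6424 in LeuD livers, against 2083, 2429 and 2299 in Control livers, with every LeuD liver far above every Control liver (24-library adjusted p = 4.11e-04). Sult1e1, the estrogen sulfotransferase, had 746, 991 and 2399.5 in LeuD livers, against 99.4, 31.0 and 30.5 in Control livers (24-library adjusted p = 0.0164). The groups did not overlap, and LeuD mouse 3 was the highest. Rdh9, a short-chain dehydrogenase of retinoids and steroids, had 1661, 1686 and 2222 in LeuD livers, against 719, 589.7 and 655 in Control livers, and rose (24-library adjusted p = 0.00812). Bco1, which cleaves beta-carotene to retinal, had 648, 467 and 469 in LeuD livers, against 195, 190.4 and 214 in Control livers, and also rose (24-library adjusted p = 0.005). Rdh16, another dehydrogenase of this family, had 2220.0, 1466 and 1608 in LeuD livers, against 4067, 4842 and 5434 in Control livers, and fell (24-library adjusted p = 0.0247). Enho, which encodes the secreted peptide adropin, had 1297, 1108 and 704 in LeuD livers, against 305, 312 and 258 in Control livers, and rose (24-library adjusted p = 0.0339). Chd1l, a chromatin remodeller recruited by poly(ADP-ribose), had 1119.7, 994 and 1186 in LeuD livers, against 368, 529 and 452 in Control livers, and rose (24-library adjusted p = 5.79e-04). In none of these genes did the groups overlap, but they were picked by low p in the same libraries. Over all genes the groups did not overlap for 11.9% higher and 11.1% lower.

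Among genes with lower values, Chpt1, which makes phosphatidylcholine from diacylglycerol, had 3435, 3929 and 3175 in LeuD livers, against 8949, 9879.8 and 8008 in Control livers. Its highest LeuD liver was below its lowest Control liver by a wide margin, and it fell in the 24-library fit (log2 change -1.35 ± 0.15, adjusted p = 0.0106). Baat, the enzyme that joins bile acids to glycine or taurine, had 4173, 4501 and 3716 in LeuD livers, against 9543, 9646 and 7908 in Control livers. It fell as well (log2 change -1.13 ± 0.15, 24-library adjusted p = 0.00257). Sugct, a mitochondrial enzyme of glutarate metabolism, had 707, 549 and 667 in LeuD livers, against 2066, 1767 and 1505 in Control livers, and fell (24-library adjusted p = 0.00639). D2hgdh, which oxidises D-2-hydroxyglutarate in mitochondria, had 544, 462 and 449 in LeuD livers, against 968, 979 and 989.6 in Control livers, with very small spread in the Control livers (24-library adjusted p = 0.00733). Zkscan3, a zinc-finger repressor of autophagy genes, had 876, 1089.9 and 940.2 in LeuD livers, against 1945, 1922 and 1855 in Control livers, and fell (24-library adjusted p = 0.00244). Omd, Plekhb1, Tppp and Lrit2 also fell in that fit, with log2 changes of -1.89, -1.25, -1.61 and -1.99 in that order. Atp6v0d2, a subunit of the vacuolar proton pump, had a change of 1.83 ± 0.20 and missed its threshold (adjusted p = 0.0509).

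**Figure D1:**
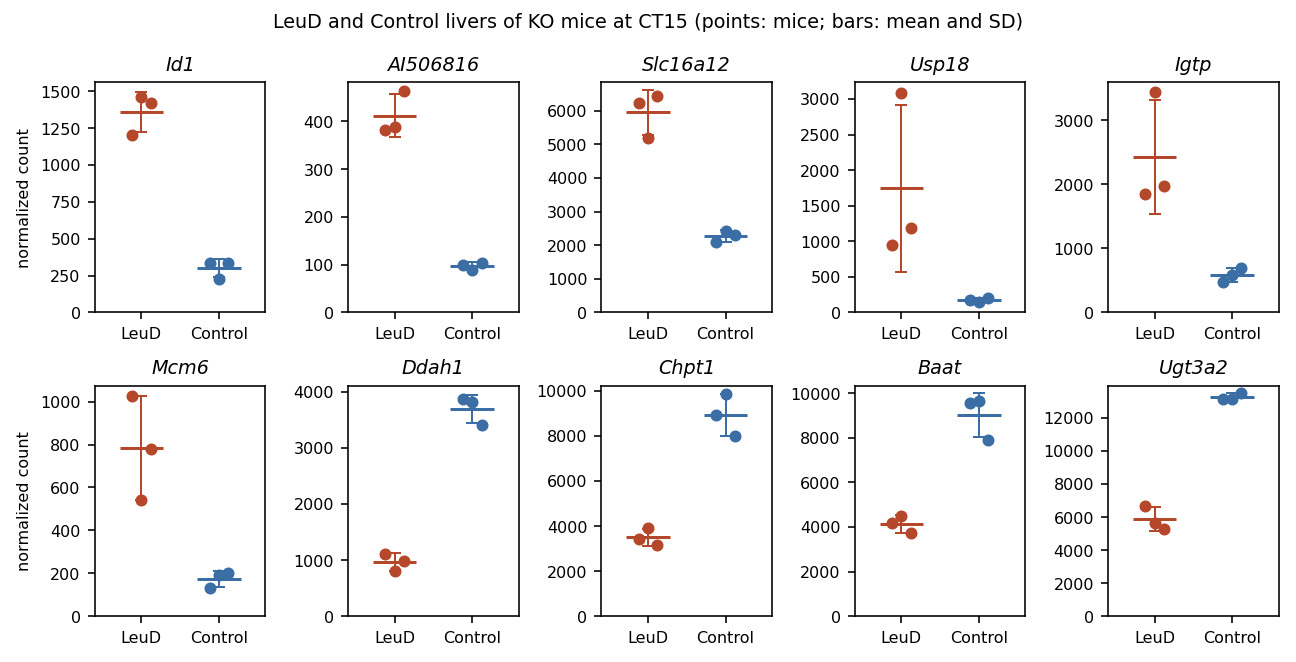
Normalized counts (y axis, from 0) of 10 genes in the 3 LeuD and 3 Control livers of KO mice at CT15, with points for mice and bars for the mean and SD. The genes were picked by low p in these same libraries, and the groups do not overlap in any of the 10 panels. Over all genes the groups do not overlap for 11.9% higher and 11.1% lower in LeuD. Usp18 shows the widest spread among LeuD mice, with mouse 2 at 3089.

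Interferon-stimulated genes pointed one way: all 31 measured had a higher mean in LeuD livers, with a median log2 change of 1.66 (0.65 to 3.13), beside a median of -0.01 and 7331 of 14834 positive over all genes. None passed the 6-library test by limma or by edgeR, and 27 had an unadjusted limma p under 0.05, all higher. In the 24-library fit 26 of 31 rose (83.9%, against 5.11% of all genes), 23 were higher in the authors' deposited table (against 3.04%), and for 27 the groups did not overlap (against 11.9%). The 5 that did not rise in the 24-library fit were Oas2, Stat2, Ifi47, Gbp2 and Cxcl9. LeuD mouse 2 was the highest library for 30 of the 31 and Control mouse 1 the lowest for 25. Without Control mouse 1 the 24-library fit called 19 and the median was 1.43, and without LeuD mouse 3 it called 25 and the median was 1.98. That fit was not run without LeuD mouse 2 or any other mouse, so the weight of LeuD mouse 2 in these counts was not tested.

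The promoters of a few of these genes are shown because they hold the letters of the element that STAT2 and IRF9 bind as part of a complex. The sequences are from RefSeq, build GRCm38.p6, from 250 bases before the start to 50 bases after it on the gene's strand, 5′ to 3′; capitals mark matches to GAAA, any 2 bases, GAAA, searched on both strands.
Ifit1 (chr19:34640639-34640938, plus strand, 2 matches): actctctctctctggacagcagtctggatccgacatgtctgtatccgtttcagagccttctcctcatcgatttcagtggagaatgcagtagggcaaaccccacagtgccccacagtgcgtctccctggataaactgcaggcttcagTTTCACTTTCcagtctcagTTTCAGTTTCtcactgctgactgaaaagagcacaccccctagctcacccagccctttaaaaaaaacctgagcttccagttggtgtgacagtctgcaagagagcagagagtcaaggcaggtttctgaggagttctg
Ifit3 (chr19:34583279-34583578, plus strand, 2 matches): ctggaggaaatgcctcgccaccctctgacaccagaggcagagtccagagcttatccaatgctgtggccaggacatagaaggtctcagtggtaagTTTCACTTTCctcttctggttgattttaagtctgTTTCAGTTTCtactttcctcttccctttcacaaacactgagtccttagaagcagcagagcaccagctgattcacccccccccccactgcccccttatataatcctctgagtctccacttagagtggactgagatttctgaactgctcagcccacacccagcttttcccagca
Isg15 (chr4:156200769-156201068, minus strand, 3 overlapping matches): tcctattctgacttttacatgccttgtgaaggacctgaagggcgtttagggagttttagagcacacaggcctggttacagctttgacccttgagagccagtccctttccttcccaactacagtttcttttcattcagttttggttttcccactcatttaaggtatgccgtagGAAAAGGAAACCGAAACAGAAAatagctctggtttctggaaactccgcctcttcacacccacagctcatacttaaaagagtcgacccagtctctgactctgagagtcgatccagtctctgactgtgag
Oas1a (chr5:120907476-120907775, minus strand, 2 overlapping matches): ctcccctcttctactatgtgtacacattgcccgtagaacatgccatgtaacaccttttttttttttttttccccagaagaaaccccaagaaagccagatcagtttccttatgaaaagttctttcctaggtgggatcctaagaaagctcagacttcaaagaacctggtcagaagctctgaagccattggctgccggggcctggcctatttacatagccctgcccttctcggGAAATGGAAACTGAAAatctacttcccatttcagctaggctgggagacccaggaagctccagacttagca
Igtp (chr11:58199306-58199605, plus strand, 1 match): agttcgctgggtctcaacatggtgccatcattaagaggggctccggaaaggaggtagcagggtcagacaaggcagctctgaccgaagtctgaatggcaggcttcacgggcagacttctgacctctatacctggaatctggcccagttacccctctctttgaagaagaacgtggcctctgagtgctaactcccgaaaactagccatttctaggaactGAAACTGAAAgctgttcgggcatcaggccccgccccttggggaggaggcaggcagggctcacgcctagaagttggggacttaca
A match is a description of letters, not a measured binding site. Of the 31 listed genes, 23 were in the promoter table and 15 of them held the letters (65.2%), against 3.91% of 10564 tested genes with a promoter and 3.44% of all 32851 promoters in the table. The 15 holders had a median log2 change of 1.86 and the 8 without a match 1.48, so genes of both kinds had higher values. Among all genes that rose in the 24-library fit, 53 of 556 with a promoter held the letters (9.53%), and among those that fell 14 of 358 did (3.91%).

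The factors that bind this element differed in size of change. Irf9 had normalized counts of 2239, 3277 and 2646 in LeuD livers, against 709, 1123 and 1051 in Control livers. The lowest LeuD liver held far more than the highest Control liver, and Irf9 had the lowest 24-library adjusted p of the list (log2 change 1.51 ± 0.22, adjusted p = 1.94e-04). Stat2 had 2159.8, 3825 and 3046 in LeuD livers, against 1233, 2546 and 2006 in Control livers, and here the groups overlapped and no rule called it (log2 change 0.67 ± 0.31, 24-library adjusted p = 0.0837). Irf7, the factor that amplifies interferon production, had 2792, 4847 and 1953 in LeuD livers, against 679.6, 1034 and 1177 in Control livers. All LeuD livers were above all Control livers, and Irf7 rose in the 24-library fit (log2 change 1.66 ± 0.35, adjusted p = 0.0102).

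Receptors and sensors were looked up after the values had been seen. The interferon receptor subunits Ifnar1 and Ifnar2 had log2 changes of -0.22 ± 0.13 and -0.03 ± 0.17, and neither was called. Ddx58, which encodes the cytoplasmic RNA sensor RIG-I, had 1871, 2693 and 2135 in LeuD livers, against 593, 1176 and 882 in Control livers, and rose (log2 change 1.37 ± 0.26, 24-library adjusted p = 4.11e-04). Ifih1, which encodes another, MDA5, had 2232, 2725 and 2331 in LeuD livers, against 639, 1283 and 1130.2 in Control livers, and rose (log2 change 1.31 ± 0.26, 24-library adjusted p = 0.00118). Both sensors showed LeuD livers well above Control livers, with Control mouse 1 the lowest. The endosomal sensor Tlr3 had a log2 change of 0.45 ± 0.32 and Irf3, the factor below the RNA sensors, of 0.30 ± 0.15; neither was called.

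The largest changes of the list were in antiviral effectors and in their regulator Usp18. Ifit1, which binds foreign RNA caps, had 529, 1682 and 349 in LeuD livers, against 60.5, 177 and 157 in Control livers. LeuD mouse 2 was far above the other LeuD livers, which in turn were above all Control livers (log2 change 2.5 ± 0.62, 24-library adjusted p = 0.00301). Ifit3, its partner, had 1119, 1763 and 780.2 in LeuD livers, against 127, 319.7 and 317 in Control livers (log2 change 2.29 ± 0.42, 24-library adjusted p = 0.00179), with the near-identical Ifit3b higher by 2.00; reads shared by the pair cannot be assigned with certainty. Isg15, a ubiquitin-like modifier, had 378, 717 and 301 in LeuD livers, against 44.1, 147 and 80.7 in Control livers. The groups were again apart (log2 change 2.41 ± 0.48, 24-library adjusted p = 0.00414). Usp18, the protease that removes Isg15 from proteins and dampens interferon receptor signalling, had 948, 3089 and 1189 in LeuD livers, against 170.3, 150.0 and 199.7 in Control livers. Its lowest LeuD liver was far above its highest Control liver, and the log2 change of 3.13 ± 0.41 was the largest of the list (24-library adjusted p = 2.28e-04).

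Oas1a, which makes the activator of RNase L, had 165, 480.3 and 194 in LeuD livers, against 54.5, 45.5 and 73.8 in Control livers (24-library adjusted p = 0.0178). Ifi44 had 225, 1001 and 333 in LeuD livers, against 47.6, 63.1 and 69.8 in Control livers (24-library adjusted p = 0.00551). In both, LeuD mouse 2 lay far above its mates and no libraries overlapped. Rsad2, the antiviral enzyme viperin, had 684, 1533 and 427 in LeuD livers, against 177, 278 and 271 in Control livers (24-library adjusted p = 0.011). Mx2, a dynamin-like GTPase, had 329, 516 and 257 in LeuD livers, against 83.0, 109 and 100.3 in Control livers, with closely spaced Control livers (24-library adjusted p = 4.11e-04). Igtp, an immunity-related GTPase that acts on pathogen vacuoles, had 1848, 3445 and 1966 in LeuD livers, against 474, 580.4 and 700.4 in Control livers, and rose (log2 change 2.01 ± 0.27, 24-library adjusted p = 5.79e-04). Irgm1, of the same family, had 2859, 4849.8 and 2943 in LeuD livers, against 885, 1691 and 1328 in Control livers, and rose (log2 change 1.45 ± 0.29, 24-library adjusted p = 7.98e-04), while Ifi47, also of this family, had a log2 change of 0.83 ± 0.33 and was not called by that fit (adjusted p = 0.0837). Cxcl10, a chemokine for T cells, rose with a log2 change of 1.86 ± 0.44 (24-library adjusted p = 0.019), whereas its relative Cxcl9 had a log2 change of 0.66 ± 0.36 with overlapping groups (24-library adjusted p = 0.392).

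**Figure D2:**
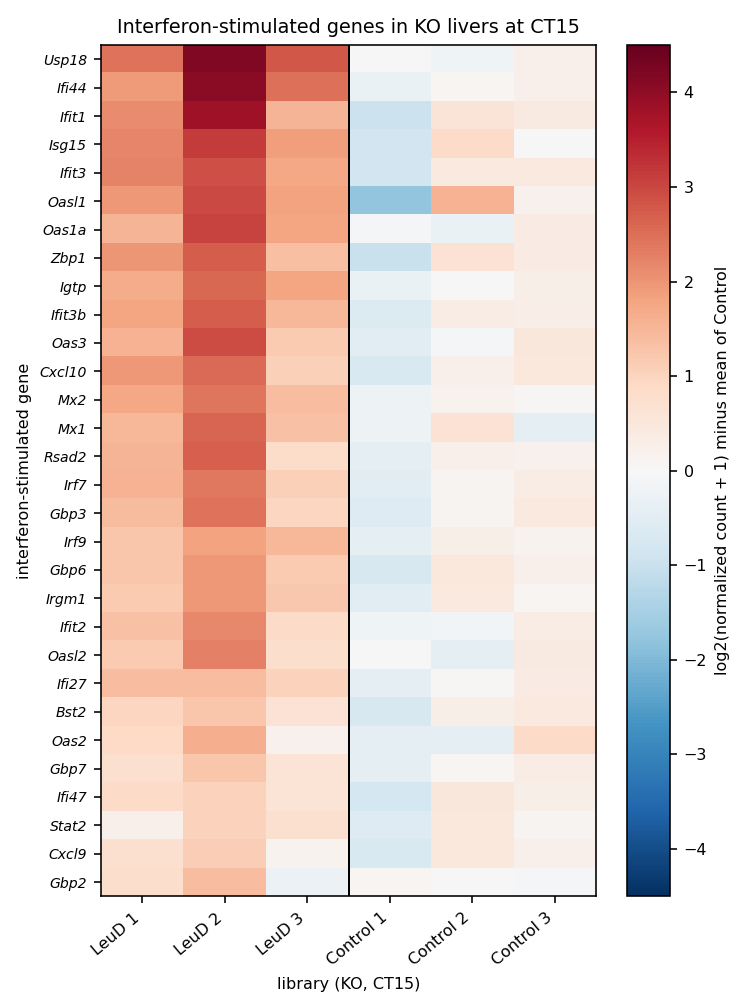
Plotted are 30 of the 31 interferon-stimulated genes (rows, largest change at the top) in the 6 KO livers at CT15, LeuD on the left and Control on the right; colour is log2(normalized count + 1) minus the mean of the Control livers, red above it and blue below. LeuD mouse 2 is the reddest column in 29 of the 30 genes and Control mouse 1 the lowest in 24.

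PKR (Eif2ak2), at once an interferon-stimulated gene and an eIF2 kinase like GCN2, had 1069, 1667 and 1047 in LeuD livers, against 392, 836 and 585 in Control livers. It rose in the 24-library fit (log2 change 1.09 ± 0.30, adjusted p = 0.005), with every LeuD liver above every Control liver. Of 24 measured genes of the MHC and antigen processing, 19 had positive changes with a median of 0.43, which was 0.26 without Control mouse 1, and H2-Q4, H2-T23, Tap1, Tap2 and Tapbp rose, 5 of 24 in the 24-library fit (20.8%, against 5.11%) and the same number in the authors' deposited table (against 3.04%). Tap1, a subunit of the peptide transporter, had 714, 946 and 710.2 in LeuD livers, against 222, 439 and 444 in Control livers (log2 change 1.15 ± 0.29, 24-library adjusted p = 0.0113). H2-Q4 had 3101, 3129 and 3156 in LeuD livers, against 1748, 2036 and 2119.8 in Control livers, although reads of near-identical H2 genes are uncertain. Class II genes, typical of professional antigen-presenting cells, were not called: H2-Aa had a log2 change of -0.16 ± 0.20 and Cd74 of -0.01 ± 0.19. Without Control mouse 1 the 24-library fit called 1 of these 24 genes, and without LeuD mouse 3 it called 2.

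Markers of immune cells are given beside this result. Kupffer cell and macrophage markers summed to 465, 775 and 380 RPM in LeuD livers and 529, 475 and 574 in Control livers, with 9 of 13 genes positive, a median change of 0.13 and none at 0. Lymphocyte markers summed to 18.6, 11.4 and 7.20 RPM in LeuD livers and 16.3, 14.1 and 17.6 in Control livers, with 2 of 12 positive. Erythroid markers summed to 277, 107 and 123 RPM in LeuD livers and 241, 367 and 302 in Control livers, with 0 of 7 positive. Neutrophil markers, all low, summed to 2.57, 1.49 and 1.97 RPM in LeuD livers and 2.01, 0.820 and 1.04 in Control livers, with 3 of 3 tested genes positive, a median change of 0.80 and 1 at an unadjusted p under 0.05. LeuD mouse 2, the highest library for the interferon genes, was also the highest for the Kupffer cell markers, and the part of any of these cell types in the result was not tested.

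In WT mice on the same diet at the same time most values ran the other way. In WT at CT15, 3 of the 31 interferon-stimulated genes had positive changes, the median was -0.57, and the authors' deposited table called 5 lower (Ifit1, Ifit3, Oasl1, Irf7 and Bst2, against 1.91% of all genes). On one scale for the 24 libraries, Usp18 averaged 1799.7 ± 1210.3 in KO LeuD and 178 ± 26.0 in KO Control livers, against 253 ± 9.74 in WT LeuD and 279.7 ± 73.8 in WT Control livers at CT15 (SD, n = 3 each). The KO LeuD livers stood alone, and the other 3 groups were near one another. Irf7 averaged 3305 ± 1538 in KO LeuD and 991 ± 261 in KO Control, against 887 ± 375 in WT LeuD and 1580.5 ± 72.3 in WT Control. Ifit1 averaged 882 ± 747 in KO LeuD and 135 ± 63.7 in KO Control, against 116 ± 52.1 in WT LeuD and 238 ± 56.2 in WT Control. For Irf7 and Ifit1 the order of the diets was thus opposite in the 2 genotypes.

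The difference itself was tested as the LeuD effect in KO minus that in WT. It was positive for all 31 genes with a median of 2.01 log2 units. In the 12-library test 28 of 31 had an unadjusted p under 0.05 and a positive difference (against 6.53% of 14588 genes), and 0 passed adjustment. The 24-library fit called 17 of 31 positive (54.8%, against 0.471% of all genes), among them Irf9 (adjusted p = 0.00246), Usp18 (adjusted p = 0.0077), Ifit3 (adjusted p = 0.00793) and Igtp (adjusted p = 0.00793). Without Control mouse 1 it called 8, and without LeuD mouse 3 it called 15.

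At CT03 the same diet in KO mice gave changes centred near 0. Of the 31 genes, 16 had positive changes there, with a median of 0.13, and the authors' deposited table called 1 higher (against 2%) and 2 lower (against 1.49%). The effect at CT15 minus that at CT03 was positive for 29 of 31, with a median of 1.34 log2 units. It had an unadjusted p under 0.05 for 16 (against 3.6% of 14512 genes), and the 24-library fit called 7 (22.6%, against 0.232% of all genes). That count was 4 without Control mouse 1 and 8 without LeuD mouse 3. In WT mice at CT03, 1 of 31 was positive with a median of -0.48, and the authors' deposited table called 9 lower (against 2.82%).

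**Figure D3:**
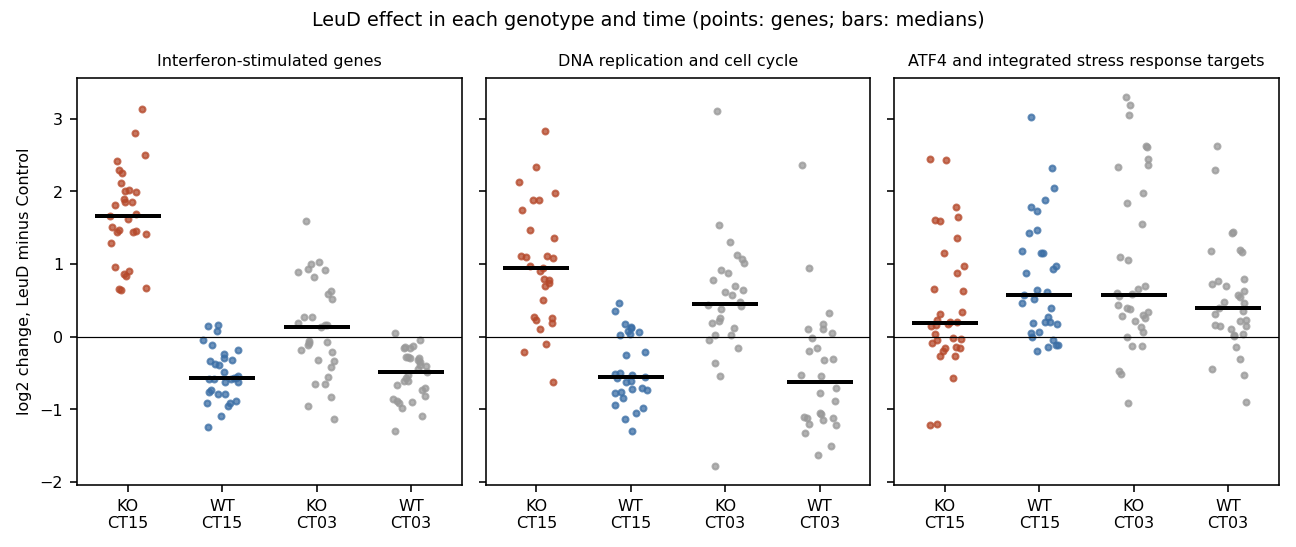
Log2 change, LeuD minus Control (y axis), of the genes of 3 lists in KO and WT livers at CT15 and CT03, with a point for each gene and a bar for the median. For the interferon-stimulated genes the medians are 1.66 in KO and -0.57 in WT at CT15, and 0.13 in KO and -0.48 in WT at CT03.

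Genes of DNA replication and the cell cycle also had higher values in LeuD livers. Of 29 measured, 26 had positive changes, with a median of 0.95 log2 units (-0.63 to 2.83), and for 17 the groups did not overlap (against 11.9% of all genes). The 24-library fit called 10 of 28 higher (35.7%, against 5.11%): Ccnd1, Ccne1, Ccne2, Mcm2 to Mcm7 and Rrm1. The authors' deposited table called 9 higher (against 3.04%), among them Cdc6 and Top2a in addition to Mcm2 to Mcm6, Ccnd1 and Ccne1. LeuD mouse 1 was the highest library for 17 of the genes and Control mouse 1 the lowest for 17. Without Control mouse 1 the 24-library fit called 6 higher and 1 lower, and without LeuD mouse 3 it called 3 higher. It was not run without LeuD mouse 1.

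The MCM proteins form the ring that unwinds DNA at replication origins. Promoters of 2 of them are shown because their genes rose and they hold letters of E2F sites; source, window and orientation are as above, and capitals mark TTTGGCGC or TTTCCCGC on either strand.
Mcm6 (chr1:128359656-128359955, minus strand, 2 matches): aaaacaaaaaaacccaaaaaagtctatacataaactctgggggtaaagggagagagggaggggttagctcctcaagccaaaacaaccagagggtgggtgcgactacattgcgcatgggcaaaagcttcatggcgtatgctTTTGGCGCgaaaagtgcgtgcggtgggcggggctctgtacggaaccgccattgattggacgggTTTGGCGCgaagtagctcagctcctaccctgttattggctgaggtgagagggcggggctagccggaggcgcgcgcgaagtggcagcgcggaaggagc
Mcm5 (chr8:75109259-75109558, plus strand, 1 match): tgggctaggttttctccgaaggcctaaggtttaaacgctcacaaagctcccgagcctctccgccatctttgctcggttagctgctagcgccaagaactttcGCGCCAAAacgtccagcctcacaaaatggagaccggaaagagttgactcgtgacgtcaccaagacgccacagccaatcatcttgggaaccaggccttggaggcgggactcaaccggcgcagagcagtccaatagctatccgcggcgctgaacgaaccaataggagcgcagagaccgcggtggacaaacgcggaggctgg
Of 24 replication genes with a promoter in the table, 5 held these letters (20.8%: Cdc6, Mcm3, Mcm5, Mcm6 and Mcm7), against 3.27% of tested genes with a promoter and 1.56% of all promoters. Among all genes that rose in the 24-library fit 4.68% held them, and among those that fell 2.23% did.

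Mcm6 had normalized counts of 1028, 541 and 781 in LeuD livers, against 131, 193 and 201 in Control livers. The groups were well apart (log2 change 2.13 ± 0.28, 24-library adjusted p = 0.00761). Mcm5 had 625, 181 and 311 in LeuD livers, against 41.5, 104 and 129 in Control livers, and rose in the 24-library fit (adjusted p = 0.0284). Mcm4 had 537, 261 and 439 in LeuD livers, against 115, 183 and 169 in Control livers, and rose as well (adjusted p = 0.00414). Ccnd1, the cyclin of entry into the cycle, had 4205, 1181 and 2995 in LeuD livers, against 322, 670.5 and 528 in Control livers, with the lowest LeuD liver, mouse 2, still above the highest Control liver (log2 change 2.34 ± 0.47, 24-library adjusted p = 0.00139). Ccne1, the cyclin that starts S phase, had 116, 86.6 and 83.4 in LeuD livers, against 19.9, 24.8 and 31.5 in Control livers, also without overlap (24-library adjusted p = 0.0306). Mki67, a marker of dividing cells, had 62.5, 130.3 and 84.5 in LeuD livers, against 19.9, 57.9 and 56.1 in Control livers, and no rule called it (log2 change 1.11 ± 0.47, 24-library adjusted p = 0.248). The cyclins of later phases, Ccna2 and Ccnb2, had log2 changes of 0.28 ± 0.38 and 0.10 ± 0.44, uncalled as well. Cdkn1a, the cyclin-dependent kinase inhibitor p21, had 704, 1049 and 1271 in LeuD livers, against 4587, 262 and 117 in Control livers, so Control mouse 1 alone held far more than any other liver.

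WT livers had other values for this list too. In WT at CT15 the median change was -0.55, and the authors' deposited table called 4 lower (Mcm2, Mcm5, Mcm6 and E2f1, against 1.91% of all genes). On one scale Mcm6 averaged 809.9 ± 253 in KO LeuD and 180.1 ± 38.6 in KO Control, against 207 ± 6.44 in WT LeuD and 343 ± 59.4 in WT Control livers (SD, n = 3 each). The LeuD effect in KO minus that in WT was 2.85 ± 0.34 log2 units for Mcm6, the lowest adjusted p over all genes in the 12-library test (limma adjusted p = 0.0341). The difference was positive for 28 of 29 genes, 17 of them at an unadjusted p under 0.05 (against 6.53%), and the 24-library fit called Mcm6 (adjusted p = 0.0473) and Mcm4 (adjusted p = 0.0186). In KO at CT03 the list also leaned to higher values, with 23 of 28 positive and a median of 0.46. The authors' deposited table called 3 higher there (against 2%) and 1 lower (against 1.49%). The effect at CT15 minus that at CT03 had a median of 0.48. It was positive at an unadjusted p under 0.05 for 3 genes (against 3.6%), and 0 passed adjustment in the 12-library test.

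The 12-library test of KO minus WT at CT15 called 3 of 14588 genes in all, 2 positive (0.0137%) and 1 negative (0.00685%). Slfn9, a Schlafen gene, had 363, 635 and 502 in LeuD livers, against 40.6, 104 and 71.8 in Control livers in KO, with a difference between the genotypes of 3.28 ± 0.45 (limma adjusted p = 0.0475). Ugt3a2, a UDP-glycosyltransferase, had 6679, 5662 and 5284 in LeuD livers, against 13157, 13119 and 13511 in Control livers in KO, with every LeuD liver far below every Control liver. On one scale it averaged 6073 ± 764 in KO LeuD and 13642 ± 237 in KO Control, against 12871 ± 444 in WT LeuD and 12533 ± 1029.7 in WT Control livers, so the KO LeuD livers alone were low (difference -1.22 ± 0.17, limma adjusted p = 0.0475). The corresponding test of CT15 against CT03 in KO called 0 of 14512 genes by limma and by edgeR, with 928 at an unadjusted p under 0.05.

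The targets of ATF4 and the integrated stress response, the pathway that GCN2 feeds, were mixed in direction in KO livers at CT15. Of 34 measured, 21 had positive changes, with a median of 0.19 (-1.21 to 2.45). The 24-library fit called 1 of 33 higher (Ddit3), a share below the 5.11% of all genes. The authors' deposited table called 4 higher (Atf5, Ddit3, Psat1 and Phgdh, against 3.04%) and 2 lower (Ddit4 and Cth, against 1.67%). In WT at CT15 the median was 0.58, and the authors' deposited table called 11 higher (against 1.56% of all genes) and 0 lower. The effect in KO minus that in WT was positive for 10 of 33 with a median of -0.31, and 7 had an unadjusted p under 0.05 and a negative difference (against 5.56%). In KO at CT03 29 of 34 were positive with a median of 0.58, and the authors' deposited table called 8 higher (against 2%). The effect at CT15 minus that at CT03 was positive for 7 of 34 with a median of -0.43, and 3 had an unadjusted p under 0.05 and a negative difference (against 2.8%). In the 24-library fit the median of the list at CT15 was 0.18, and 0.40 without Control mouse 1. None of these differences passed adjustment in the 12-library tests or the 24-library fit, where for KO minus WT 0.0983% of all genes were called with a negative difference.

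Psat1 and Phgdh, both of serine synthesis, had the largest positive changes of the list. Psat1 had normalized counts of 77.2, 245 and 262 in LeuD livers, against 28.5, 21.7 and 45.2 in Control livers (log2 change 2.45 ± 0.51, deposited adjusted p = 1.45e-05 in the authors' table). Phgdh, the first enzyme of the pathway, had 55.6, 112 and 176 in LeuD livers, against 27.7, 12.4 and 17.7 in Control livers (log2 change 2.43 ± 0.48, deposited adjusted p = 5.80e-05 in the authors' table). The groups did not overlap for either, although all values were low. Asns, asparagine synthetase, had 2221, 2473 and 1570.4 in LeuD livers, against 280.2, 649.8 and 1743 in Control livers. Control mouse 3 lay within the range of the LeuD livers, and the change of 1.59 ± 0.58 was not called (24-library adjusted p = 0.127). On one scale Asns averaged 2159 ± 484 in KO LeuD and 916 ± 783 in KO Control, against 675 ± 158 in WT LeuD and 161 ± 29.5 in WT Control livers.

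Trib3, a pseudokinase induced by ATF4, had 134, 135 and 131 in LeuD livers, against 252, 83.8 and 67.9 in Control livers. Control livers spanned the LeuD livers, for a log2 change of 0.24 ± 0.46 in KO, against 1.88 ± 0.34 in WT (difference -1.64 ± 0.63, unadjusted p = 0.0238). Fgf21, a hormone released by liver under amino acid stress, had 420.2, 97.3 and 66.7 in LeuD livers, against 195, 39.3 and 56.1 in Control livers. Its log2 change was 0.88 ± 0.79 in KO, against 3.02 ± 0.37 in WT (difference -2.14 ± 0.98, unadjusted p = 0.05). Ddit3, which encodes CHOP, had 1075, 527 and 757 in LeuD livers, against 253, 535 and 288 in Control livers, with LeuD mouse 2 just below Control mouse 2 (24-library adjusted p = 0.0367). Without LeuD mouse 3 the 24-library fit called none of the list. Atf5, a relative of Atf4, had 16946, 20828 and 30018 in LeuD livers, against 15926, 10038 and 8795 in Control livers, and was higher in the authors' deposited table (adjusted p = 0.0327). Atf4 itself had 6077, 2650.3 and 3092 in LeuD livers, against 3187, 5869 and 3631 in Control livers, with no separation of the groups. Cth, which makes cysteine, had 5448, 10700.3 and 14119 in LeuD livers, against 37635, 15399.7 and 17348 in Control livers, and was lower in the authors' deposited table (adjusted p = 0.0495). Ddit4, an inhibitor of mTORC1, had 555, 956 and 769 in LeuD livers, against 3626, 1138 and 1221 in Control livers, and was also lower there (adjusted p = 0.025). For both, Control mouse 1 was by far the highest library.

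**Figure D4:**
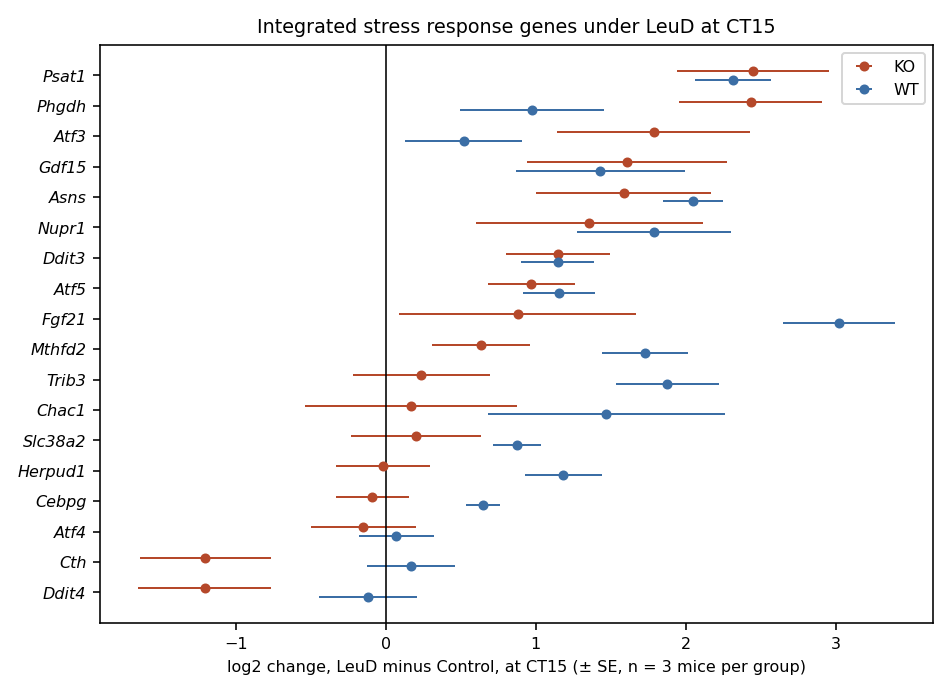
Log2 change, LeuD minus Control, at CT15 (x axis, ± SE, 3 mice per group) of 18 integrated stress response genes in KO (red, above) and WT livers (blue, below). Trib3 lies at 0.24 in KO and 1.88 in WT, and Fgf21 at 0.88 in KO and 3.02 in WT, while Psat1 and Phgdh lie above 2 in KO.

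Of 15 genes of the eIF2 machinery, the 24-library fit called 3 higher, Eif2ak2 among them (against 5.11% of all genes), and 2 lower (against 3.48%), and without LeuD mouse 3 it called 1 higher and 0 lower. Eif2b2, a subunit of the exchange factor that recharges eIF2, had 947, 818 and 1005 in LeuD livers, against 678, 647 and 666 in Control livers (log2 change 0.47 ± 0.14, 24-library adjusted p = 0.0121), and Eif2b4, another subunit, rose with a log2 change of 0.42. Eif2s2, the beta subunit of eIF2, had 2334, 1834 and 1625 in LeuD livers, against 2799.8, 2982 and 2656 in Control livers, and fell (log2 change -0.56 ± 0.17, 24-library adjusted p = 0.00741). Eif2ak1, the heme-regulated kinase, also fell (log2 change -0.43 ± 0.16). Among 24 leucine sensors and regulators of mTORC1, the kinase complex that promotes growth when amino acids are plentiful, 2 rose and 1 fell in that fit, close to the 5.11% and 3.48% of all genes, and none was called without LeuD mouse 3. Mtor had 1723, 1667 and 2126 in LeuD livers, against 1355, 1177 and 1309 in Control livers, and rose (24-library adjusted p = 0.0114). Rptor, which recruits mTORC1 substrates, had 1627, 1999.6 and 2266 in LeuD livers, against 1436, 1563 and 1191 in Control livers, and rose (24-library adjusted p = 0.0206), and its effect in KO minus WT was 0.79 ± 0.20 (24-library adjusted p = 0.0476). Sesn3, a stress-induced inhibitor of mTORC1, had 521, 679 and 653 in LeuD livers, against 935, 1138 and 1155 in Control livers, and fell (24-library adjusted p = 0.0241). Of 19 aminoacyl-tRNA synthetases 15 had positive changes with a median of 0.22; 1 rose (Yars) and 1 fell (Qars) in the 24-library fit, again close to those shares, with 0 called without LeuD mouse 3 or without Control mouse 1, and the leucine enzyme Lars had a log2 change of 0.25 ± 0.15 and was not called.

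Enzymes that break down leucine, isoleucine and valine had lower values. Only 2 of 22 had positive changes, the median was -0.33, and 6 fell in the 24-library fit (27.3%, against 3.48% of all genes): Dbt, Mccc1, Acadsb, Hibadh, Aldh6a1 and Mut. For 9 the groups did not overlap (against 11.1%), and the authors' deposited table called 2 lower (against 1.67%). Aldh6a1, of the valine branch, had normalized counts of 9781, 12072 and 10840.5 in LeuD livers, against 24221, 20694 and 19707 in Control livers. The highest LeuD liver lay far below the lowest Control liver (log2 change -0.98 ± 0.16, 24-library adjusted p = 0.00335). Acadsb, which acts on isoleucine and valine intermediates, had 2287, 2971 and 2624 in LeuD livers, against 4413, 6642 and 5853 in Control livers, and fell alike (log2 change -1.09 ± 0.19, 24-library adjusted p = 0.0027). Mccc1, a subunit of the leucine-specific carboxylase, had 1522, 1779 and 2095 in LeuD livers, against 2194, 2633 and 2745 in Control livers, and fell (log2 change -0.49 ± 0.17, 24-library adjusted p = 0.0288). Dbt, the transacylase core of the branched-chain keto acid dehydrogenase, fell with a log2 change of -0.50 ± 0.19, and its partner subunits Bckdha and Bckdhb had log2 changes of 0.07 ± 0.16 and -0.11 ± 0.18 and were not called. The fit called 6 without Control mouse 1 and 4 without LeuD mouse 3. In WT at CT15 the median was -0.02, and the effect in KO minus WT was positive for 1 of 22, with 7 negative at an unadjusted p under 0.05 (against 5.56%) and 0 called. In KO at CT03 1 of 22 was positive with a median of -0.52, and the authors' deposited table called 7 lower (against 1.49%).

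Messages of cytosolic ribosomal proteins were slightly higher and those encoded by mitochondrial DNA lower. Of 78 ribosomal protein genes, 76 had positive changes with a median of 0.37; the 24-library fit called 22 higher (28.2%, against 5.11%) and 8 were higher in the authors' deposited table (against 3.04%). They took 2.16% to 2.55% of reads in LeuD livers and 1.86% to 2.07% in Control livers, and LeuD mouse 1 was the highest library for 72 of them. Without LeuD mouse 3 the fit called 2 of them, and it was not run without LeuD mouse 1. The medians in the other comparisons were 0.41 in WT at CT15, 0.70 in KO at CT03 and 0.39 in WT at CT03. All 13 mitochondrially encoded genes had negative changes, with a median of -0.81; the authors' deposited table called 9 lower (against 1.67%) and the 24-library fit 6 (46.2%, against 3.48%). These transcripts took 2.93% to 3.51% of reads in LeuD livers and 5.66% to 6.27% in Control livers, so the groups were well apart. mt-Cytb, the cytochrome b of complex III, had 296896, 220475 and 253457 in LeuD livers, against 437715, 459699 and 506928 in Control livers (log2 change -0.87 ± 0.28, 24-library adjusted p = 0.0375). The fit called 4 without Control mouse 1 and 1 without LeuD mouse 3, and the median was -0.10 in WT at CT15 and -0.79 in KO at CT03.

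Several acute phase proteins, which liver secretes in inflammation, rose in the 24-library fit. Of 25 acute phase and complement genes 20 had positive changes with a median of 0.55, and the 24-library fit called Hp, Hpx, Apcs, Serpina3n, Cp and Hamp higher and Crp lower (28% in both directions, against 8.59%). Hpx, the heme-binding protein hemopexin, had normalized counts of 274816, 464951 and 323241 in LeuD livers, against 157377, 109827 and 135939 in Control livers. Every LeuD liver held well above every Control liver (log2 change 1.38 ± 0.30, 24-library adjusted p = 0.0237). Hamp, which encodes the iron hormone hepcidin and is a target of BMP signalling in liver, had 72598, 41886 and 43238 in LeuD livers, against 14168, 18493 and 34053 in Control livers, again without overlap (log2 change 1.29 ± 0.36, 24-library adjusted p = 0.0367). Crp had 9809, 12549 and 11593 in LeuD livers, against 28598, 16858 and 18539 in Control livers, and fell (24-library adjusted p = 0.027). Without LeuD mouse 3 the fit called 1 of the list. The change was not particular to KO at CT15. In WT at CT15 the median was 0.22, and the authors' deposited table called 7 higher (against 1.56% of all genes) and 1 lower (against 1.91%). In KO at CT03 the median was 0.53, and 5 were higher there (against 2%), Hpx and Hamp among them. Apcs, serum amyloid P, had a log2 change of 2.16 ± 0.23 in WT at CT15, beside 1.93 ± 0.40 in KO.

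**Figure D5:**
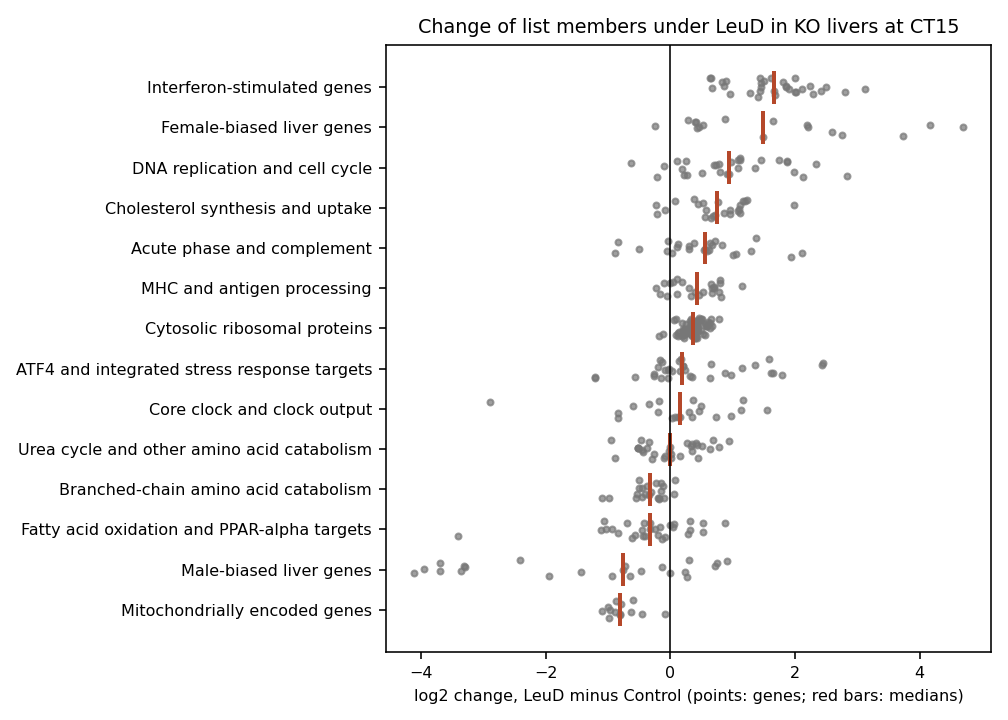
Log2 change, LeuD minus Control (x axis), of the genes of 14 lists in KO livers at CT15, with a point for each gene and a red bar for the list's median. The interferon-stimulated genes lie wholly to the right of 0 (median 1.66) and the mitochondrially encoded genes wholly to the left (median -0.81).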

How the data were processed

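Poly(A)-enriched liver RNA was sequenced with a NEBNext Ultra II kit, per the labels' protocols. Per the submitters' processing notes, STAR 2.5.2b, Trimmomatic 0.36, Subread 1.5.2, featureCounts, DESeq and DESeq2 were used on build GRCm39; use of strand and shared reads is not given in the sources used here, so overlapping genes, and near-identical copies such as the H2, Mup and Ifit3 genes, cannot be told apart with certainty. The authors deposited 10 tables of which 4 were used, each with 6 libraries; the values deposited are a signal, namely read counts scaled by each library's size factor, with separate factors in each table. Each table also holds a log2 fold change and p-values (the authors' deposited comparison). Whole read counts were recovered from the deposited steps for 100% of values within 0.01, giving 39037273 to 44879767 reads per library here.

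Since the values are no raw counts, log2(normalized count + 1) was tested with limma 3.58.1 (R 4.3.3; 2-sided, intensity trend, Benjamini-Hochberg adjusted over the whole table, threshold 0.05) on 3 against 3 mice. The count tests of edgeR 4.0.16 and DESeq2 1.42.0 were run on recovered reads as alternatives, besides one limma fit of 24 libraries, a replicate block, leaving out each mouse, other pseudocounts and filters. Differences between comparisons were tested as interactions over 12 libraries for genes with a mean of at least 10. Replicate numbers did not pair mice, and mates of a group differed beyond sampling noise (chi-square over degrees of freedom at least 33.6). Named genes were Eif2ak4, 12 per direction (called, then lowest p; mean of at least 50, established symbol), up to 4 of lowest p per list, a small set of stress and clock genes, and genes called in a difference test; other genes were named after their values were seen. The values of 1 interferon-stimulated gene are not reported here, though it stands in the list's counts and medians. The 40 lists, 10 of them cell type markers, and the comparison itself were chosen with earlier results of these data known. Scripts were tested on simulated data; Python 3.11.15 was used for tables and figures.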

Additional observations from a re-analysis of the deposited data

Results flagged for a closer look

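The LeuD effect at CT15 differed between KO and WT livers by an interaction test (limma over 12 libraries) for 3 genes. It was larger in KO by 2.85 log2 units for Mcm6 and by 3.28 for Slfn9, and the difference for Ugt3a2 was -1.22, lower in KO. Of these, edgeR's quasi-likelihood test called Mcm6 alone, and the 24-library fit called Mcm6 and Slfn9 but not Ugt3a2. None of the 3 was called with a replicate block, without the libraries above 200 RPM in pancreas acinar genes, or in 8 of the 12 tests that left out a single mouse.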

How the results depend on the processing

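The count of genes called in KO at CT15 was 3 by limma and the same with pseudocounts of 0.5 and 10, mean filters of 10 and 50, TMM scaling and edgeR. It was 698 by DESeq2 on recovered reads and 698 by the authors' deposited adjusted p, 1223 in the fit of 24 libraries, 875 in that fit without Control mouse 1 and 345 without LeuD mouse 3, and 87 without the 2 libraries with the most acinar transcripts. Leaving out single mice gave 0 to 203. With a replicate block it was 0; same-numbered mice had correlations of -0.27, -0.02 and -0.12, so the numbers share no more than a name. The KO minus WT difference at CT15 called 3 genes by limma, 81 in the fit of 24 libraries, 1 by edgeR, 0 with a replicate block, 0 when libraries with over 200 RPM of acinar transcripts were left out, and 0 to 19 leaving out single mice. The CT15 minus CT03 difference in KO called 0, 37 in the fit of 24 libraries, and 0 to 1 leaving out single mice. List medians moved to 0.053 to 0.68 (insulin and FOXO), -0.18 to 0.036 (glutathione and NRF2) and -0.27 to 0.017 (pericentral) leaving out LeuD mouse 3 or Control mouse 1. Without both they moved to -0.46 (branched-chain catabolism), -0.014 (leucine sensors), 0.16 (periportal) and -0.15 (pericentral). Shifts were scored against the spread of libraries about their group, which includes Control mouse 1. Other medians shifted without that mouse too: fatty acid synthesis from 0.32 to -0.18, fatty acid oxidation from -0.33 to -0.048. Cholesterol synthesis went from 0.75 to -0.14 and male-biased genes from -0.77 to -2.10. The cause was not tested. Of 188 named genes, 0 called values changed sign over these settings, and 30 of 3174 values, of 13 genes called in neither setting, did. With 3 mice a group, counting error adds most for low genes such as Phgdh. The list medians and the 24-library fits without single mice were chosen after the data were seen.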

Other observations

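Sex-biased liver genes ranged widely. Of 17 female-biased genes 16 had positive changes with a median of 1.48, and the 24-library fit called 3 of the 15 it tested higher, Cyp3a44, Sult1e1 and Abcd2 (against 5.11% of all genes). Abcd2, a peroxisomal transporter of fatty acids, had normalized counts of 1918, 1756 and 1737 in LeuD livers, against 784, 210.0 and 359 in Control livers. Of 23 male-biased genes 6 had positive changes with a median of -0.77, and the fit called 2 lower, the near-identical copies Cyp4a12a and Cyp4a12b (against 3.48%). Control mouse 1 was the lowest library for 14 of the male-biased genes: Mup7, a major urinary protein, had 1436, 527 and 266 in LeuD livers, against 522, 45526 and 18073 in Control livers. Without that mouse the 5-library medians were 2.14 and -2.10, and 6 female-biased genes were called higher and 12 male-biased genes lower, among 122 higher and 81 lower over all genes. LeuD mouse 3 was the highest library for 8 female-biased genes and the lowest for 8 male-biased genes. Without it the 5-library medians were 1.04 and -0.63, and 0 genes of either list were called there or in the 24-library fit. The directions were not particular to KO at CT15. The female-biased medians were 1.30 in WT at CT15, 1.10 in KO at CT03 and 1.37 in WT at CT03. The male-biased medians were -0.46, -1.19 and -0.93 in the same order. In WT at CT03 the authors' deposited table called 11 male-biased genes lower (against 2.82%).

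Antioxidant genes (glutathione and NRF2 targets) were mixed in direction: 14 of 29 had positive changes, with a median of -0.005. Of the 27 it tested, the 24-library fit called 2 higher, Gss and Nfe2l2, and 2 lower, Gsta2 and Gpx1. These were 14.8% in both directions, against 8.59% of all genes. Gss, which completes glutathione synthesis, had 5802, 3712 and 4998 in LeuD livers, against 2477, 2842 and 1932 in Control livers. It rose in that fit (log2 change 0.99 ± 0.22, adjusted p = 0.00135), as did Nfe2l2, which encodes NRF2 (0.53 ± 0.18, adjusted p = 0.0308). Gpx1, a glutathione peroxidase, had 32049, 32532 and 32775 in LeuD livers, against 53990.5, 56797 and 44925 in Control livers, and fell (adjusted p = 0.0292). Genes of the urea cycle and other amino acid catabolism were also mixed, with 15 of 31 positive and a median of -0.01. The fit called only Arg1 higher and Otc lower (6.45% in both directions, against 8.59% of all genes). Arg1 had 127843, 124398 and 208866 in LeuD livers, against 84408, 65356 and 85246 in Control livers (adjusted p = 0.0185). Otc had 7764, 6860.1 and 7736 in LeuD livers, against 11583, 14961 and 15013 in Control livers (adjusted p = 0.00414). Cholesterol synthesis genes were mostly positive (21 of 24, median 0.75), yet Control mouse 1 was the lowest library for 23 and the median without it was -0.14. Of 21 core clock and clock output genes, the 24-library fit called 2, Clock and Npas2, both lower (against 3.48% of all genes), and 0 without Control mouse 1.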
